A study of Mus musculus with 4 samples.

Results

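The genes described here are 7 genes of the imprinted Prader-Willi/Angelman region on mouse chromosome 7: Magel2, Peg12, Ndn, Mkrn3, Snrpn, Ube3a and Atp10a, out of 37310 genes in the table. They were matched by gene identifier to those symbols. The set was chosen by the measured rise of Magel2 and Peg12 in the comparison described below, so the values of the 7 genes in that comparison are a description and carry no test of their own. The study asked what loss of the circadian clock protein Bmal1 changes in mouse embryonic stem cells (mESCs). The mESCs were of JM8, a feeder-free line of the C57BL6/N strain kept on gelatin, and mRNA-seq covered 2 wild-type and 2 Bmal1-/- libraries. Both groups grew in 2i medium with LIF, which blocks the kinases Mek (1 µM PD0325901) and Gsk3 (3 µM CHIR99021). The Bmal1-/- cells are 1 clonal line made with CRISPR/Cas9, with small insertions or deletions in both alleles of Bmal1, so genotype and clone cannot be told apart.

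Imprinted genes are transcribed mainly from the copy inherited from 1 parent, according to DNA methylation marks set in the germ line. In this region a control element at the start of Snrpn directs expression of Snrpn, Ndn, Magel2, Mkrn3 and Peg12 from the paternal copy, whereas Ube3a is silenced on the paternal copy in neurons and is expressed from both copies in most other cells. Loss of the paternal genes causes Prader-Willi syndrome in people, and loss of maternal UBE3A causes Angelman syndrome. The values below sum both parental copies and do not tell them apart.

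In the mm9 annotation the 7 genes lay in the order Atp10a (ENSMUSG00000025324, chr7:65913572-66084796, plus strand), Ube3a (ENSMUSG00000025326, chr7:66484122-66562097, plus strand), Snrpn (ENSMUSG00000000948, chr7:67127388-67285105, minus strand), Ndn (ENSMUSG00000033585, chr7:69493163-69494814, plus strand), Magel2 (ENSMUSG00000056972, chr7:69521865-69526526, plus strand), Mkrn3 (ENSMUSG00000070527, chr7:69562479-69565039, minus strand) and Peg12 (ENSMUSG00000070526, chr7:69606757-69609396, minus strand). They spanned 3.70 Mb, and no other annotated gene overlapped any of them. Ndn, Magel2, Mkrn3 and Peg12 are each annotated with 1 exon, which is their whole length, and sat within 116 kb. The gap between Ndn and Magel2 was 27.1 kb, that between Magel2 and Mkrn3 36.0 kb and that between Mkrn3 and Peg12 41.7 kb. Snrpn lay 2208 kb away from Ndn, and Bmal1 itself, listed as Arntl, lay 50.7 Mb beyond Peg12 on the same chromosome.

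The promoters of the 4 clustered single-exon genes are shown because Magel2 and Peg12 differed between the groups while Ndn and Mkrn3, interleaved with them, were not called. Each sequence is the 250 bases before the RefSeq start, read 5′ to 3′ on the strand of the gene, with every CpG in capitals. In build GRCm38.p6 they are chr7:62348027-62348276 on the plus strand for Ndn, chr7:62376729-62376978 on the plus strand for Magel2, chr7:62420154-62420403 on the minus strand for Mkrn3 and chr7:62464511-62464760 on the minus strand for Peg12.
Ndn: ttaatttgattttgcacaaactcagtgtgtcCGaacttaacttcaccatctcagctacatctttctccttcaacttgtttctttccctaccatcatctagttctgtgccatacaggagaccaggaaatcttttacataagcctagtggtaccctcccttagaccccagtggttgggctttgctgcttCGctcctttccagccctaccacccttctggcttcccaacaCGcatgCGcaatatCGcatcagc
Magel2: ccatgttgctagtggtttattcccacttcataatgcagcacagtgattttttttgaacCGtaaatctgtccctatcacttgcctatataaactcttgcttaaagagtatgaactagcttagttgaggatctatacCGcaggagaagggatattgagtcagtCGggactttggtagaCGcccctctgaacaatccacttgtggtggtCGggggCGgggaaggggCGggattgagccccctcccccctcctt
Mkrn3: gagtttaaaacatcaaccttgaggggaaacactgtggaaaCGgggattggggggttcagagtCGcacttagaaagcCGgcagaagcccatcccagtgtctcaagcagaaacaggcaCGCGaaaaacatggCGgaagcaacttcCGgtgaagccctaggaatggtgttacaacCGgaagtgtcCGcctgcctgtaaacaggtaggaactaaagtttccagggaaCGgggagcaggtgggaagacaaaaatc
Peg12: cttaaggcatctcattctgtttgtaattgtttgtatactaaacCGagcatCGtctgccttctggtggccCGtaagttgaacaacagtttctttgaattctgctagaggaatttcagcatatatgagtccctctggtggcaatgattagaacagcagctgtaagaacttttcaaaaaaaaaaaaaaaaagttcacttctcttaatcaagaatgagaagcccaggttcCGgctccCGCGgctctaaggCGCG

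The Magel2 promoter held 7 CpGs in these 250 bases and the Peg12 promoter held 8, against 5 in Ndn and 10 in Mkrn3. All 7 genes matched RefSeq promoter windows of 300 bases, from 250 before to 50 after a start, with 10 windows in all because Snrpn has several starts. Over 300 bases the CpG count was 11 for Ndn, 10 for Magel2, 15 for Mkrn3 and 12 for Peg12, between the lower quartile of 3 and the upper quartile of 20 over all 32817 windows. Ube3a had 29 and Atp10a had 20, and the Snrpn windows had 2 to 7. The E-box CACGTG, the motif that Bmal1 binds with Clock, was in 0 of the 10 windows on either strand and in 7.15% of all windows. TGCCGC, the core bound by the imprint-keeping factor Zfp57 when methylated, was on either strand of 1 of the 10 windows, a Snrpn window, and in 11.6% of all windows. These matches are letters in a window and not measured binding. Peg12 is related in sequence to Frat1 and Frat2, which bind Gsk3, and the relation reaches into the printed promoter. Near its end, 28 bases before the start, the Peg12 window shared GTTCCGGCTCCCGCGGCTCTAAGG, a run of 24 bases, with the Frat2 window, where it starts 26 bases after the Frat2 start and reaches the end of the window. The Frat1 window held the first 20 of these bases, from 30 bases after its start to the end of the window. Both runs stop where the windows stop, so their full length was not seen.

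Each library held between 21504265 and 23329034 reads on genes. The values are read counts divided by a library factor (trimmed mean of M values, TMM), and whole reads were recovered for 100% of them. A count of 3 reads was worth 2.82 to 3.19 on this scale. Arntl read 678 and 733 in wild-type and 556 and 590 in the Bmal1-/- libraries, so reads of the edited gene were still counted. A count over the whole gene does not show small insertions or deletions and so does not check the labels. Levels of the 10 mESC markers tested differed by less than 2-fold (log2 fold changes −0.17 to 0.40), with Pou5f1 between 26483 and 29164 in all 4 libraries. All 10 still passed an adjusted p of 0.05 in the limma fit given below, 5 higher and 5 lower, as did 52.6% of all tested genes. The series states that the replicates are biological without saying how cultures were split, so the spread between libraries stands for these libraries only. Standard errors are those of limma, which draws the variance of each gene toward a trend over all tested genes (18.1 prior degrees of freedom). They can therefore be smaller or larger than the spread of a gene's own libraries, which the SD gives.

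Per kilobase of exon, the scale used here to rank genes by level, Snrpn was highest in wild-type mESCs with 839 normalized counts per kb and Magel2 lowest with 0.797. Sums over genes and ratios between genes given below are not scaled by length. Between them came Ube3a with 223, Ndn with 93.8, Atp10a with 50.0, Mkrn3 with 44.8 and Peg12 with 20.8 normalized counts per kb. Among the tested genes these levels ranked from the 87.3 percentile for Snrpn down to the 0.338 percentile for Magel2. In wild-type, neighbours in this order did not overlap between libraries, the closest being Atp10a with 51.8 and 48.2 per kb and Mkrn3 with 46.9 and 42.7 per kb. In the Bmal1-/- libraries the level of Peg12, 51.2 and 36.1 per kb, reached across those of Atp10a, 47.1 and 41.0 per kb, and Mkrn3, 37.4 and 44.3 per kb. Magel2 remained lowest there, with 5.04 and 2.86 per kb.

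Of the 7 genes, Magel2 and Peg12 rose past 2-fold, Ube3a rose by a smaller amount, Snrpn fell, and Ndn, Mkrn3 and Atp10a did not pass the threshold in the limma fit over all 14510 genes tested (Benjamini-Hochberg adjusted p under 0.05). By that rule 52.6% of all tested genes were called, 24.0% higher and 28.6% lower, and past 2-fold 5.75% were called higher and 1.45% lower. The latter are 835 and 211 genes, 79.8% of them higher. With quantile normalization they are 590 and 426 genes, 58.1% of them higher. The libraries of the groups did not overlap for 5 of the 7 genes, as for 76.0% of all tested genes. The 2 genes past 2-fold had been the reason for choosing the region. In bulk libraries a change in RNA per cell and a change in the share of cells expressing a gene cannot be told apart.

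**Figure D1:**
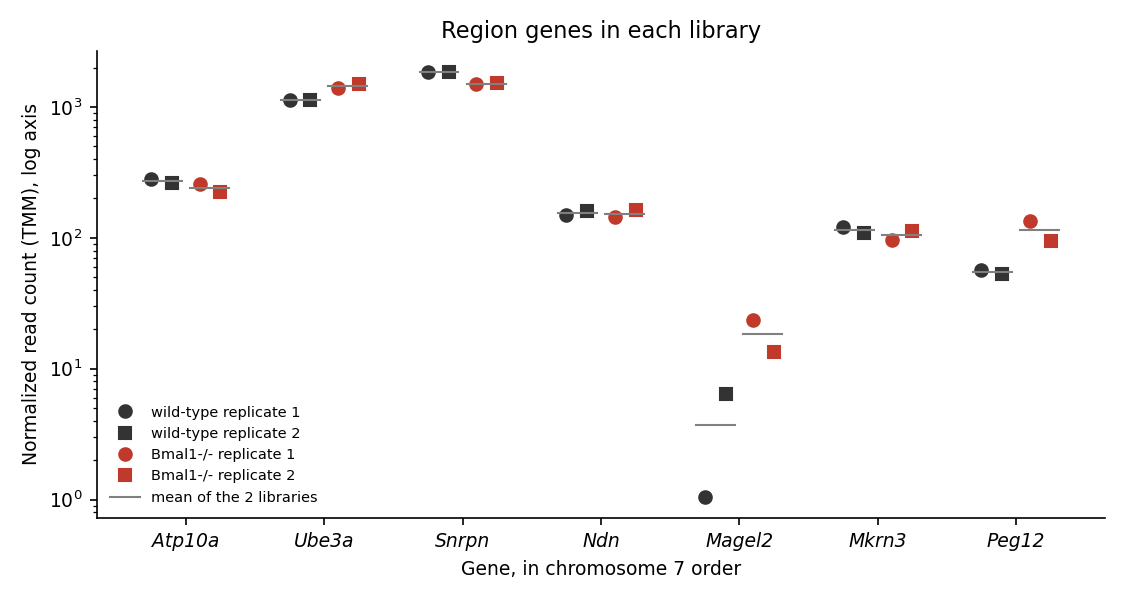
Normalized read count (log axis) of the 7 genes, in chromosome order, in each of the 4 libraries, with lines at the mean of the 2 libraries of a group. Magel2 and Peg12 are higher in both Bmal1-/- libraries, Snrpn is lower and Ube3a higher by smaller amounts, and the points of Ndn and Mkrn3 overlap.

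Magel2, a MAGE family protein that activates the ubiquitin ligase Trim27 in endosomal protein recycling, was barely transcribed in wild-type mESCs. Its normalized values were 1.05 and 6.37 in wild-type and 23.5 and 13.4 in the Bmal1-/- libraries. These are 1 and 6 reads against 25 and 14 reads. The groups did not overlap, but wild-type replicate 1 was far below wild-type replicate 2. Group means were 3.71 ± 3.76 in wild-type and 18.4 ± 7.17 in Bmal1-/- mESCs (SD, n = 2), and the fitted log2 fold change was 2.27 (standard error 0.57) on the log2(value + 1) scale. The ratio of the means was 4.96, with an exact 95% interval of 2.20 to 13.2 that covers counting error only. Leaving out wild-type replicate 1 gave 1.35 on the log2 scale, and leaving out wild-type replicate 2 gave 3.19. Without Bmal1-/- replicate 1 it was 1.88 and no longer passed (limma, adjusted p = 0.066). Magel2 entered the fit only through the libraries in which it was high, since the filter asked for a mean of at least 10 and its mean was 11.1. With no filter on low values it did not pass either (limma, adjusted p = 0.10), while its 15 alternatives ranged from 1.6e-07 to 0.10 in adjusted p.

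Peg12, the Frat-related gene, was higher by a smaller factor on many more reads. Its rise was a reason for choosing the set, so the values and alternatives given here are a description only. Its normalized values were 56.9 and 53.1 in wild-type and 135 and 95.4 in the Bmal1-/- libraries, from 54 and 50 reads against 144 and 100 reads. Both Bmal1-/- libraries lay above both wild-type libraries, and they differed from each other more than the wild-type pair did. Group means were 55.0 ± 2.67 in wild-type and 115 ± 28.2 in Bmal1-/- mESCs (SD, n = 2), and the fitted log2 fold change was 1.03 (standard error 0.18). The ratio of the means was 2.10 (exact 95% interval 1.66 to 2.67, counting error only), which lies close to the 2-fold limit. It stayed called in all 15 alternatives but was under 2-fold in 4 of them, with log2 fold changes of 0.78 without Bmal1-/- replicate 1, 0.99 without wild-type replicate 2, 0.84 with quantile normalization and 0.93 with a pseudocount of 10.

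Ndn, the MAGE family growth suppressor necdin, lies next to Magel2 and read 149.6 and 160.4 in wild-type against 145 and 162 in the Bmal1-/- libraries. The groups overlapped, with means of 155 ± 7.64 and 153 ± 12.3 (SD, n = 2), and the fitted log2 fold change of −0.02 (standard error 0.12) turned sign with equal library totals (0.044). Mkrn3, a makorin RING-finger protein that restrains the onset of puberty and lies between Magel2 and Peg12, read 120.1 and 109 in wild-type against 95.8 and 113. Its groups overlapped too, and the log2 fold change was −0.14 (standard error 0.15). The 4 neighbours within 116 kb therefore held 2 genes called higher and 2 not called, in alternating order along the chromosome. Among all tested genes 24.0% were called higher and 28.6% lower. The 2 called here, Magel2 and Peg12, are the genes whose rise chose the set, so the order is a description only.

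Ratios between neighbours within a library do not depend on the scaling of the libraries. The ratio of Magel2 to Ndn reads was 0.00704 and 0.0397 in wild-type and 0.162 and 0.0824 in the Bmal1-/- libraries. The ratio of Peg12 to Mkrn3 reads was 0.474 and 0.485 in wild-type and 1.41 and 0.840 in the Bmal1-/- libraries, where Peg12 had more reads than Mkrn3 in replicate 1 only. Both ratios were higher in each Bmal1-/- library than in each wild-type library. The rise of Magel2 and Peg12 chose the set, so this separation follows from the choice and is a description only. The ratio of Mkrn3 to Ndn, the 2 neighbours that were not called, was 0.803 and 0.682 in wild-type and 0.662 and 0.700 in the Bmal1-/- libraries, and its groups overlapped.

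**Figure D2:**
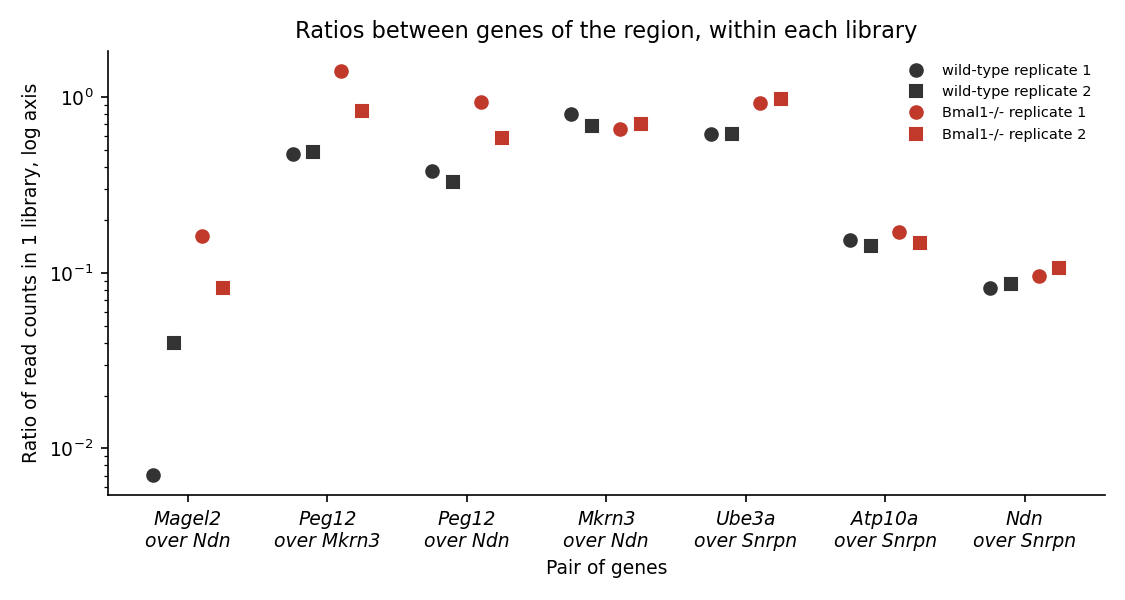
Ratio of read counts between pairs of genes in each library (log axis), wild-type in black and Bmal1-/- in red. The ratios of Magel2 to Ndn, Peg12 to Mkrn3, Peg12 to Ndn, Ube3a to Snrpn and Ndn to Snrpn do not overlap between the groups, while those of Mkrn3 to Ndn and Atp10a to Snrpn overlap. Ratios with Magel2 or Peg12 hold the genes whose rise chose the set. The separation of Ube3a to Snrpn follows from the opposite differences of these genes.

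Snrpn, which encodes the spliceosome protein SmN and starts at the imprinting control element, fell in both Bmal1-/- libraries. It read 1836 and 1852 in wild-type and 1499 and 1521 in the Bmal1-/- libraries. The 2 libraries of each group lay close together and far from the other group. Group means were 1844 ± 10.8 in wild-type and 1510 ± 15.3 in Bmal1-/- mESCs (SD, n = 2), and the fitted log2 fold change was −0.29 (standard error 0.05). The ratio was 0.819 (exact 95% interval 0.780 to 0.860, counting error only). Of the 1309 windows of 75 bases in its exons, 99.6% occur once in the mm9 genome, and for the other 6 genes 100% do, so exact copies elsewhere share few or no reads with them.

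Ube3a, the E3 ubiquitin ligase lost in Angelman syndrome, rose. Its normalized values were 1134 and 1139 in wild-type and 1396 and 1492 in the Bmal1-/- libraries, with no overlap. Group means were 1136 ± 3.68 in wild-type and 1444 ± 68.2 in Bmal1-/- mESCs (SD, n = 2), and the fitted log2 fold change was 0.34 (standard error 0.05). The ratio of Ube3a to Snrpn reads was 0.617 and 0.615 in wild-type and 0.931 and 0.981 in the Bmal1-/- libraries. Its lack of overlap follows from the rise of Ube3a and the fall of Snrpn and adds nothing to them. Atp10a, a membrane flippase whose imprinting has been reported to vary with tissue and strain, read 283 and 263 in wild-type and 257 and 224 in the Bmal1-/- libraries. Its groups did not overlap, but the log2 fold change of −0.19 (standard error 0.10) did not pass the threshold.

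Snrpn made up most of the paternally expressed signal, so its fall set the direction of the sum. The 5 paternally expressed genes together read 2164 and 2181 in wild-type and 1899 and 1905 in the Bmal1-/- libraries. Without Snrpn, the sum of the other 4 went the other way, from 328 and 329 to 399 and 384. That rise comes from Magel2 and Peg12, the genes that chose the set, since Ndn and Mkrn3 alone summed to 269.7 and 269.8 in wild-type and 240.5 and 276 in the Bmal1-/- libraries, which overlap.

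Between Atp10a and Peg12 the annotation holds 206 genes, of which 8 passed the filter: the 7 genes above and the small nucleolar RNA Snord64. Of the 199 genes other than the 7, 191 had no read in any library. Among these were all 137 copies of SNORD115 and all 27 copies of SNORD116, the snoRNA clusters that follow Snrpn, whose products carry no poly(A) tail. Whether a read can be assigned to a single copy was not checked for them. The lack of reads therefore does not show that these RNAs were absent. Snord64 read 24.2 and 24.4 in wild-type and 34.8 and 29.6 in the Bmal1-/- libraries, and was not called (log2 fold change 0.38, standard error 0.26). SNORD107, below the filter, read 6.32 and 3.19 in wild-type and 12.2 and 15.3 in the Bmal1-/- libraries. Both are no longer than 70 bases, shorter than the 75-base reads, so their values are uncertain.

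**Figure D3:**
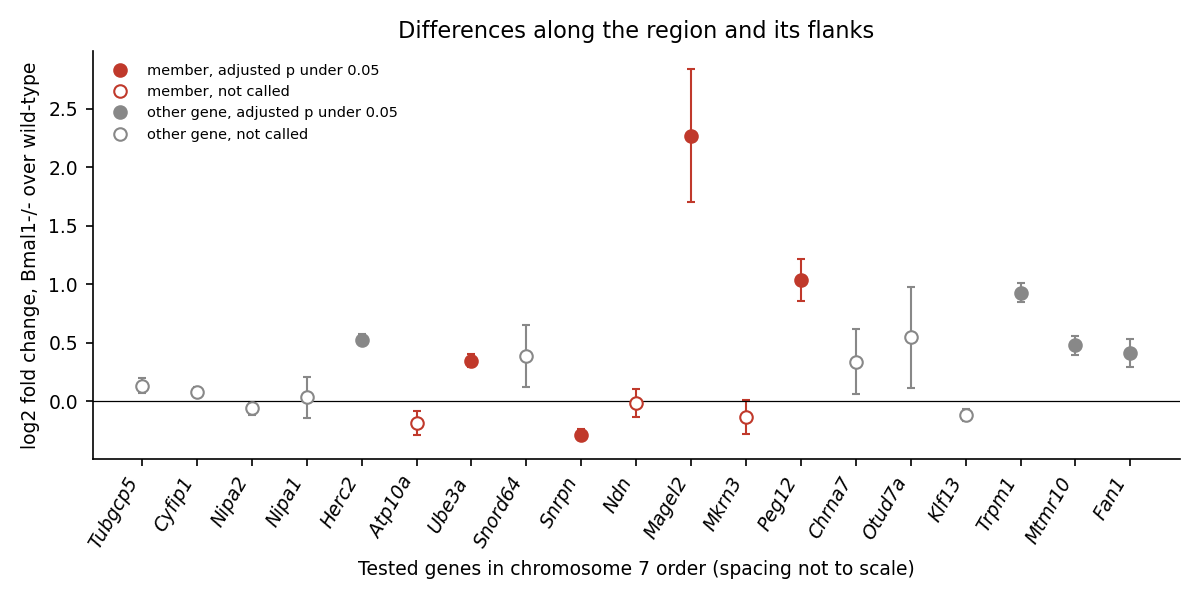
Log2 fold change, Bmal1-/- over wild-type, with its standard error, for the tested genes of the region and of its flanks in chromosome order (spacing not to scale). Magel2 (2.27) and Peg12 (1.03) stand above their neighbours Ndn (−0.02) and Mkrn3 (−0.14), and Trpm1 (0.93) is highest among the flanking genes.

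Genes on either side, which are not imprinted or not imprinted in a settled way, were listed to show how the surroundings moved. Of 11 tested, 4 were called higher, 0 lower and 7 were not called, with a median log2 fold change of 0.34 against −0.03 over all genes. The share over all tested genes was 24.0% higher and 28.6% lower. Herc2, a large ubiquitin ligase that binds Ube3a, rose by 0.53 on the log2 scale. Mtmr10 and Fan1 rose by 0.48 and 0.41 on that scale. Trpm1, a cation channel of retina and melanocytes on the far side of Peg12, rose most, from 347 and 313 to 616 and 639 (log2 fold change 0.93). Chrna7, the nearest of these to Peg12, had a log2 fold change of 0.34 and was not called.

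Genes that work with or resemble the 7 genes were taken as lists, to be read beside the 24.0% called higher and 28.6% called lower among all tested genes. Of 11 tested MAGE relatives and Magel2 partners, 2 rose and 4 fell. Usp7 and Trim27, which form the Magel2 ligase complex, had log2 fold changes of 0.12 and −0.29. The retromer subunits Vps26a and Vps29 both had −0.17, and all 4 genes were past the threshold. Vps35, another retromer subunit on the list, had 0.009 and was not called. Mageh1 fell by 0.59 on the log2 scale and Magee2 rose by 0.62. Of 8 Frat and Gsk3 pathway genes, 2 rose and 3 fell. Of the Peg12 relatives, Frat2 fell by 0.41 on the log2 scale, and Frat1, at 0.37, was not called. Of 6 tested relatives of the other genes, Mkrn1 rose by 0.58 and Snrpb, the close relative of Snrpn, fell by 0.38 on the log2 scale, while Mkrn2, Ube3b, Ube3c and Atp10d were not called.

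Factors that write, keep or remove imprints moved by less than 2-fold. Of 16 tested, 8 rose, 3 fell and 5 were not called, with a median log2 fold change of 0.10. Among all tested genes 24.0% were called higher and 28.6% lower. Dnmt3a, a DNA methyltransferase, and Dnmt3l, its cofactor, rose by 0.59 and 0.82 on the log2 scale, and Tet1 and Tet2, which oxidize methylcytosine, rose by 0.32 and 0.65. Dppa3, which protects methylation in the early embryo, fell by 0.95 on the log2 scale. The maintenance methyltransferase Dnmt1 and the imprint guards Zfp57 and Trim28 were not called.

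Imprinted genes of other regions were called in both directions, as were all tested genes (24.0% higher and 28.6% lower). Of 15 tested paternally expressed genes, 3 rose, 6 fell and 6 were not called, with a median log2 fold change of −0.20. Past 2-fold were a pair from the Dlk1-Dio3 region, in opposite directions. Rtl1, a retrotransposon-derived gene, went from 17.9 and 20.2 to 4.70 and 5.72 (log2 fold change −1.69), and Dio3, which inactivates thyroid hormone, went from 239 and 195 to 637 and 619.8 (log2 fold change 1.53). Of 15 tested maternally expressed ones, 4 rose, 6 fell and 5 were not called, with a median of −0.10. Past 2-fold were the noncoding RNA Mirg at −1.33 and the cell-cycle inhibitor Cdkn1c at −1.09.

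**Figure D4:**
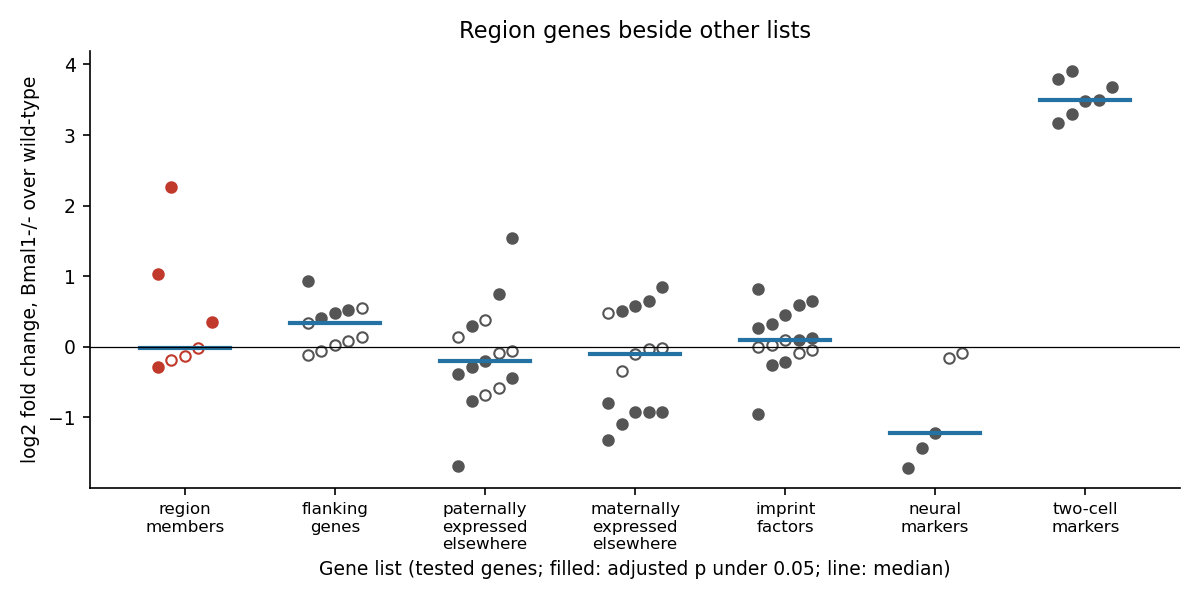
Log2 fold change, Bmal1-/- over wild-type, of each tested gene of the region and of 6 other lists, filled where adjusted p was under 0.05, with a line at the median. The 7 region genes have a median near 0 with Magel2 and Peg12 apart, and the two-cell markers all lie above 3.

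Markers of other cell types were read beside these values, and their part in the result was not tested. Magel2, Ndn and Snrpn are abundant in neurons, and of 12 neural markers 5 were tested and 0 rose. The neural sum was 4388 and 4149 in wild-type and 2580 and 2402 in the Bmal1-/- libraries, with Pax6 (−1.71), Tubb3 (−1.22) and Map2, listed as Mtap2 (−1.44), called lower past 2-fold, and Fabp7 and Dcx were at 0 in all 4 libraries. The 7 tested markers of the two-cell-like state, genes such as the Zscan4 family that switch on in a small share of mESCs, all rose by 3.17 to 3.91 on the log2 scale, and their sum went from 208 and 289 to 2943 and 2890. Fibroblast markers summed to 129 and 132 in wild-type and 165 and 151 in the Bmal1-/- libraries, with 1 of 4 tested called higher and Dcn and Lum at 0. Endoderm markers summed to 178 and 195 in wild-type and 198 and 195 in the Bmal1-/- libraries. Among them Sox17 rose by 1.27 and Sox7 fell by 2.41 on the log2 scale. Of 12 clock genes 5 rose and 3 fell, with Npas2, the relative of Clock, past 2-fold at 1.40. Counts in these lists stand beside 24.0% of all tested genes called higher and 28.6% called lower.

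The genes whose pattern over the 4 libraries lay closest to that of Magel2, by Euclidean distance of centred log2(value + 1), were Gm15835 (0.576), Pitx3 (0.629), Sox8 (0.642), RP23-428N8.1 (0.679) and Ecel1 (0.695). Closest to Peg12 were Pde10a (0.0804), Slc6a12 (0.107), Duxbl (0.109), Tdrd7 (0.136) and Gm11560 (0.141). With 4 libraries in 2 groups these distances describe the likeness of a step and its replicate spread. No other gene of the region was among them.

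**Figure D5:**
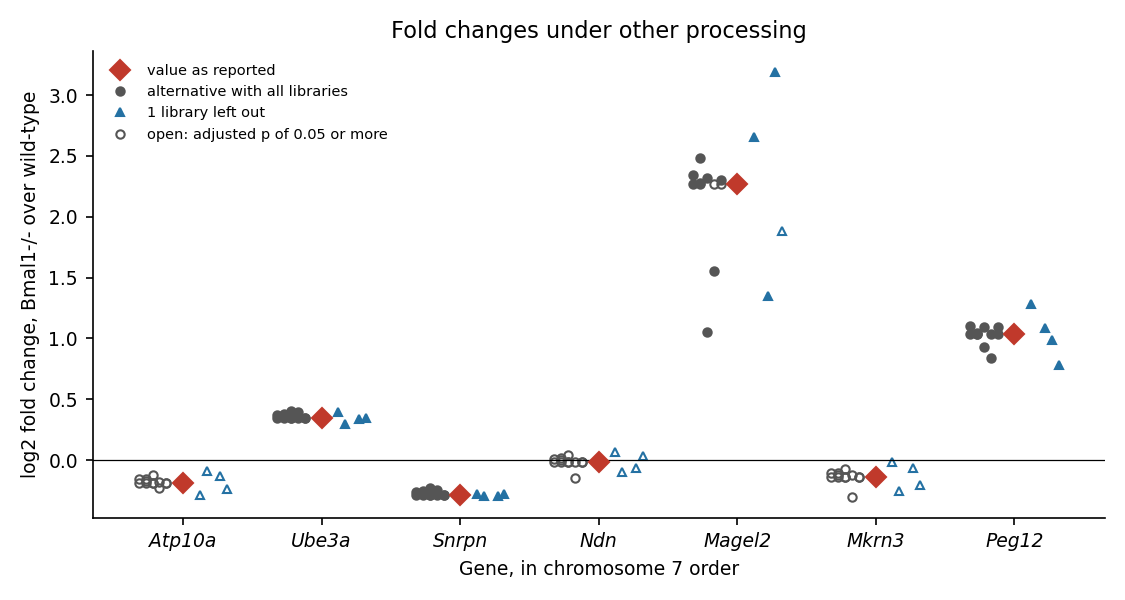
Log2 fold change of each of the 7 genes as reported (diamonds), under the alternatives with all libraries (circles) and with 1 library left out (triangles), open where adjusted p was 0.05 or more. Magel2 moves most, between 1.06 and 3.19, Snrpn and Ube3a stay within narrow ranges away from 0, and Ndn lies on both sides of 0.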

How the data were processed

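The authors made TruSeq stranded mRNA libraries, sequenced paired 75-bp reads, trimmed them with cutadapt 1.9.1 after bcl2fastq 2.18.0.12 and aligned them to mm9 with STAR 2.5.2b (tools and versions per the submitters' processing notes). The program that counted reads per gene is not given in the sources used here. The deposited table is a normalized signal made by the authors: the read count of each gene divided by a TMM factor of its library. Values are not logged. Each was a whole multiple of the value of 1 read (tolerance 0.01), so reads were recovered for 100% of values.

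The main test was limma 3.58.1 (lmFit, eBayes with an intensity trend) in R 4.3.3, fitted to 2 wild-type and 2 Bmal1-/- libraries on log2(value + 1) without covariates, for the 14510 genes whose mean was at least 10, with Benjamini-Hochberg adjustment. Called genes had an adjusted p under 0.05, with an absolute log2 fold change above 1 for 2-fold. The tests were checked on simulated data. edgeR 4.0.16 and DESeq2 1.42.0 on the recovered reads, other scalings, filters and pseudocounts, a replicate block and leaving out each library were alternatives. Genes named are the 7 members, list genes in or beside the region or related to a member, list genes past 2-fold, and the 5 genes nearest to Magel2 and to Peg12. A few other genes of the lists are named as examples, chosen after their values were seen. Dio3 and Zim1 were moved between the imprinted lists, by their known parent of expression, after their values were seen. Of the flanking genes first listed, 1 is not reported here. The members, lists and tests were chosen with earlier results of these data known. Gene positions are from GENCODE M1 (mm9), which matched all 37310 identifiers, and promoters from RefSeq (GRCm38.p6). Replicate libraries correlated at 0.995 and 0.996 across genes and differed by more than sampling noise (chi-square per degree of freedom 2.83 and 1.84). Tables were made in Python 3.11.15 (pandas 2.3.3, numpy 2.4.6, scipy 1.17.1) and figures in matplotlib 3.10.9.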

Additional observations from a re-analysis of the deposited data

How the results depend on the processing

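Peg12 (under 2-fold in 4), Snrpn and Ube3a stayed called, and Mkrn3 and Atp10a not called, in the same direction under each alternative that gave a value (15 for Peg12 and 16 for each of the others). A mean of at least 100 leaves out Magel2 and Peg12. The rise of both chose the set, so their alternatives reuse the same libraries and are a description only. Magel2 kept its direction in 15 alternatives and passed in 12. It did not pass with no filter on low values (2.27, limma adjusted p = 0.10) or in limma without the trend (2.27, limma adjusted p = 0.090), and with 1 library left out it ranged from 1.35 to 3.19. Ndn, not called in any of its 16, turned positive with equal library totals (0.044), edgeR (0.0088) and DESeq2 (0.016), and ranged from −0.098 to 0.065 with 1 library left out. The number of genes past 2-fold was 1046 (835 higher and 211 lower). It was 7639 (3488 and 4151) with no fold threshold and 318 (237 and 81) with a mean of at least 100. Lower genes numbered 426 with quantile normalization and 135 with a pseudocount of 10. With 1 library left out the total ranged from 956 to 1115, where a group left with 1 library is assumed to vary like the other. The labels number the libraries of both groups as experiments 1 and 2 without saying whether a number marks a shared day or batch. Deviations of same-numbered libraries correlated at −0.02, which gives no sign of pairing. The replicate block gave 1056 genes (844 higher and 212 lower) and changed the call of none of the 7 genes. Depth limits Magel2 most, with 7 reads in wild-type.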
